A study of Mus musculus with 2 samples.

Results

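Ery 1 was the first of the erythroid subclusters in the deposited cell annotation of the mouse foetal liver at E12.5 (embryonic day), and held 734 of the 10537 annotated cells (6.97%, 95% interval 6.49% to 7.47%). Its cells were taken as every cell that the annotation table calls Ery 1, matched to the count matrices by barcode, without any filter on gene levels. The liver came from 1 wild-type C57BL/6 embryo (C57BL/6J in the study's methods) with no treatment and no altered allele. After sorting against debris, dead cells and doublets, the cells were run as 2 libraries, called technical replicates in the methods, and the sources differ on whether 1 or 2 suspensions were made. They gave 375 Ery 1 cells in library 1 and 359 in library 2. The groups used beside it were HPSC, the annotation's haematopoietic stem and progenitor cells (213 and 208 cells), and Ery 2, the next erythroid subcluster (557 and 459 cells). All 3 groups shared the liver, the sort and the libraries. The libraries repeat the droplet capture and not the animal, so no p-values are given. The annotation was built from these same transcripts, so each difference between groups is a description.

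Erythroid cells arise from multipotent progenitors through the burst-forming and colony-forming unit stages. KIT, the receptor for stem cell factor, acts in the earlier of these, and the erythropoietin receptor EPOR takes over as maturation proceeds. The transcription factor GATA2 is exchanged for GATA1, which with KLF1 switches on the genes of heme synthesis, iron uptake, the red cell membrane and globin. The foetal liver is the main site of this process at mid-gestation.

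Levels are given in CPM, the unique molecular identifiers (UMIs) of a gene summed over the cells of a group in 1 library, divided by all UMIs of that group and library and scaled to 1000000. Pairs of values are for library 1 and then library 2. Intervals on ratios are exact conditional Poisson intervals and cover counting error only. Ery 1 yielded 9873378 and 9285253 UMIs, and its cells were deep, with a median of 26146 and 25977 UMIs against 16053 and 14956 in HPSC and 18254 and 20317 in Ery 2. At an equal 8800 UMIs a cell, the median number of genes was 2650 and 2589 in Ery 1, between HPSC (2715 and 2631) and Ery 2 (2490 and 2373). No barcode was annotated as Ery 1 in both libraries, and 3 Ery 1 cells carried a barcode that was also a kept cell of the other library.

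The libraries stood apart for a small set of genes. Among 4826 genes with at least 20 CPM in either library of Ery 1, 75 differed at least 2-fold between the libraries, of which 59 did so in the same direction in HPSC and Ery 2. Pgk1, a glycolytic enzyme, read 186 and 5.6 CPM in Ery 1. Eno1, another glycolytic enzyme, read 769 and 142. Adult beta-globin Hbb-bs went the other way, at 4467 and 9505. A gene was therefore counted as different between groups only when it was at least 2-fold higher, or lower, in each library by itself. Of the 75 genes, 4 were counted against HPSC and 6 against Ery 2.

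Of the 4 genes named as markers of Ery 1, Klf1, Gata1 and Car1 fitted the label, and Kit was present but not at its highest. Klf1, an erythroid activator, stood at 439.9 and 420.5 CPM in Ery 1 against 34.8 and 34.2 in HPSC, 12-fold (95% interval 10.9 to 14.3) higher, and was higher again in Ery 2 at 701 and 622. The size of this ratio depended on how free RNA and globin-rich cells were treated, which the interval does not cover: its log2 was 3.64, 4.56 without cells of both groups that gave over 4% of their UMIs to adult globin, and 10.8 once free RNA was taken off at 10% of UMIs, where HPSC was near 0 and the value is no bound. Gata1, the central erythroid factor, stood at 164 and 166 against 12.8 and 14.1 in HPSC, 12.3-fold (95% interval 9.95 to 15.4) higher, and reached 205 and 183 in Ery 2. These genes lie at chr8:84901928-84905291 (Klf1) and chrX:7959260-7978071 (Gata1) in GRCm38. Car1 (chr3:14766216-14808368), the carbonic anhydrase of early erythroid progenitors, was 83.4 and 71.6 in Ery 1 and 4.35 and 0.96 in HPSC, 28.4-fold (95% interval 17.9 to 48) higher. Its level in HPSC rested on 18 UMIs, and the log2 ratio was 4.26 in library 1 alone and 6.22 in library 2 alone, so that the interval does not cover the spread between libraries. It was 69.2 and 45.3 in Ery 2 and 135 and 90.4 in Ery 3, so that it did not mark Ery 1 alone. Kit (chr5:75574916-75656722) was 53.6 and 47 in HPSC, 33.9 and 31.4 in Ery 1 and 4.03 and 5.74 in Ery 2. The 3 ranges did not overlap, and the step of at least 2-fold in both libraries lay between Ery 1 and Ery 2 (6.73-fold higher in Ery 1, 95% interval 5.37 to 8.52) and not between HPSC and Ery 1.

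**Figure D1:**
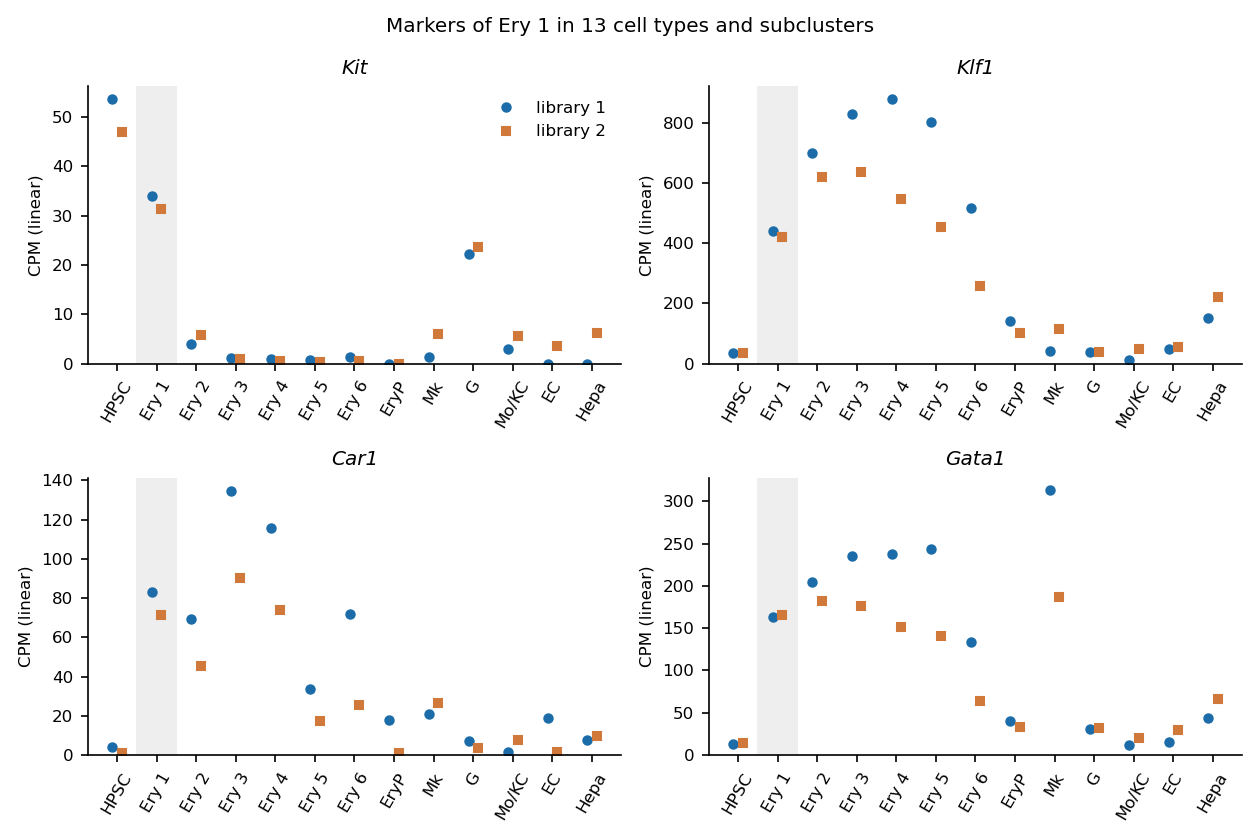
CPM of Kit, Klf1, Car1 and Gata1 (1 panel each, vertical axis) in each annotated cell type or subcluster (horizontal axis), with 1 point per library. Klf1 and Gata1 are low in HPSC and higher in Ery 1 to Ery 5, Kit is highest in HPSC, then Ery 1, then the granulocyte group G, and is low from Ery 2 on, and Car1 is near 0 in HPSC.

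The share of cells with a UMI was compared once every cell was thinned to 8800 UMIs, which left out 27 of the 734 Ery 1 cells, 42 HPSC cells and 319 Ery 2 cells. Hepatoblasts (the annotation's Hepa), which should lack erythroid transcripts, were used as the background, at a median of 22346 UMIs a cell before thinning against 26043.5 in Ery 1. Of the hepatoblasts, 2 of 33 and 14 of 31 gave over 4% of their UMIs to adult globin, so that this background held erythroid RNA, more of it in library 2. Klf1 was seen in 90.1% of Ery 1 cells and 53.9% of hepatoblasts, and HPSC at 16% lay below that background. Gata1 was seen in 75% of Ery 1 cells, against 29.8% of hepatoblasts. Kit was seen in 25% of Ery 1 cells, 35.6% of HPSC, 3.81% of Ery 2 cells and 3.55% of hepatoblasts. By library the Kit share was 25.7% and 24.3% in Ery 1, 3.50% and 4.14% in Ery 2 and 0% and 7.10% in hepatoblasts (21 thinned cells in each; before thinning, 0 of 33 in library 1 with an upper 95% bound of 10.6%), so that Ery 1 was above the hepatoblasts in both libraries and Ery 2 in 1 of them. Without thinning, 53.8% of Ery 1 cells had a Kit UMI, against 6.25% of hepatoblasts. Car1 was seen in 28.7% of thinned Ery 1 cells and 8.35% of hepatoblasts, and in 47.3% of Ery 1 cells without thinning. Late markers did not clear this background: Alas2 in 24.7% of Ery 1 cells against 37.1% of hepatoblasts and Slc4a1 in 24.1% against 42.8%.

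The promoters of Klf1, Epor and Gata1 are shown because these 3 genes were higher together in Ery 1 than in HPSC and belong to the regulatory core of the erythroid lineage. The windows are the 150 bases before the RefSeq gene start in GRCm38.p6, less any base that the GENCODE annotation places in an exon (which left 96 for Klf1), read 5′ to 3′ on the strand of the gene, and capitals mark GATA words (AGATAA where the first base may also be T and the last G) and KLF words (CCNCNCCC) on either strand, KLF words overlapping where they adjoin.
Klf1, chr8:84901832-84901927, plus strand: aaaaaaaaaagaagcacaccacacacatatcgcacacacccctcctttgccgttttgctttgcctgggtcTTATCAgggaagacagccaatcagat
Epor, chr9:21963577-21963726, minus strand: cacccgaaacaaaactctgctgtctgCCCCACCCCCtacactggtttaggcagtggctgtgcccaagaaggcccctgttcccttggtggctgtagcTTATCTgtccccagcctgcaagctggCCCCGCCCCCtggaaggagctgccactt
Gata1, chrX:7967911-7968060, minus strand: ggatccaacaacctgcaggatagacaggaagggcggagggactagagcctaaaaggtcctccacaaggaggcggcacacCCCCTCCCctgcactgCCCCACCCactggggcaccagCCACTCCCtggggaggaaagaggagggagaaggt
The Klf1 and Epor windows each held a GATA word, and the Epor and Gata1 windows held KLF words. Such words were common in all promoters: over the 250 bases before the start, a GATA word was found in 18.1% of 337 promoters of genes counted as higher in Ery 1 than in HPSC and in 16.3% of those of all compared genes, and a KLF word in 64.7% and 63.4%. A match is a description of the letters and not of binding.

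Compared with HPSC, Ery 1 was higher in Klf1, Gata1 and most early erythroid and heme synthesis genes listed, and lower in most stem and myeloid genes listed. Of 6607 genes whose mean over both groups was at least 10 CPM in each library, 356 (5.39%) were counted as higher in Ery 1 and 737 (11.2%) as lower. Among the 164 genes higher in Ery 1 with a mean of at least 50 CPM, the largest ratio was that of Gm15915, at 238 and 288 CPM against 5.51 and 3.52 in HPSC, 57.4-fold (95% interval 40.2 to 85.2) higher. It is annotated as an antisense RNA gene at chr10:93674218-93683322 on the minus strand, within the span of Ntn4, and whether the counting used strand is not given in the sources used here. Cited4, a transcriptional co-regulator, was 15.9-fold (95% interval 13.7 to 18.5) higher, at 469 and 420.0 against 26.1 and 30.1. Asparagine synthetase (Asns) was 9.38-fold (95% interval 8.26 to 10.7) higher, at 356 and 339.7 against 29.9 and 45.1. With free RNA taken off as above, the log2 ratio went from 3.99 to 10.5 for Cited4 (4.68 without the cells over 4% adult globin), again with HPSC near 0, and from 3.23 to 4.94 for Asns. The nuclear lamina gene Lmna (9.52-fold, 95% interval 7.77 to 11.8), the small red cell membrane protein gene Smim1 (9.72-fold, 95% interval 8.42 to 11.3), the lactate transporter Slc16a3 (7.62-fold, 95% interval 6.39 to 9.14) and the heme-binding protein gene Hebp1 (8.27-fold, 95% interval 7.36 to 9.33) were also among the 15 highest ratios.

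Of the 15 erythroid transcription factors listed, 14 were compared, 5 were higher in Ery 1 than in HPSC (5.39% of all compared genes), 9 were within 2-fold and none was lower. The 5 were Gata1, Klf1, Tal1, Zfpm1 and Gfi1b. Tal1, a partner of GATA1, stood at 101 and 111 CPM against 30.4 and 31. Zfpm1, the GATA1 cofactor also called FOG1, stood at 67.8 and 67.6 against 13 and 10.6, and the repressor gene Gfi1b at 103 and 98.8 against 29 and 24.3. Lmo2 and Ldb1, which bridge the same complex, were within 2-fold in both steps, with Lmo2 at 354 and 288 in HPSC and 427 and 336 in Ery 1. Sox6, a factor that acts late in erythroid maturation, was still low in Ery 1 at 4.76 and 5.71 and reached 31.2 and 24.1 in Ery 2. The early erythroid list gave the highest count, with 12 of 14 compared genes higher and 1 lower, against 5.39% and 11.2% of all compared genes. That 1 was Zfp36l2, an RNA-binding protein gene of early progenitors, at 77.6 and 71.4 in Ery 1 and 193 and 162 in HPSC. These lists were chosen for erythroid cells, so their direction is no independent evidence of identity.

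Most stem and multipotent progenitor genes were lower in Ery 1 than in HPSC, with 15 of 17 compared genes counted (11.2% of all compared genes). Cd34, the surface marker of early progenitors, was 5.67 and 6.78 CPM in Ery 1 against 384 and 370.3 in HPSC, 60.8-fold (95% interval 50.5 to 73.7) lower. Its log2 ratio of -5.93 was -7.15 with free RNA taken off and -5.19 as a mean of the CPM of single cells. The chromatin gene Hmga2 was 23.4-fold (95% interval 20.9 to 26.3) lower and Mycn 25.4-fold (95% interval 20.1 to 32.3) lower. The exceptions were Myb and Lyl1, which were within 2-fold, with Myb, a regulator of progenitor proliferation, at 119 and 108 in HPSC and 107 and 101 in Ery 1. All 7 compared myeloid priming factors were lower, beside the same 11.2%, and with median-of-ratios scaling or as a mean of the CPM of single cells 6 were compared and all 6 were lower. Spi1, which encodes PU.1, was 17.5 and 16.9 against 319.5 and 318, 18.5-fold (95% interval 16.5 to 20.9) lower. Among the genes with the largest ratios, Ccl9 (160.1-fold, 95% interval 99.5 to 276), Cd27 (157-fold, 95% interval 91 to 296), Lsp1 (132-fold, 95% interval 101 to 176), the neutrophil granule gene Mpo (26-fold, 95% interval 23.8 to 28.5) and Prtn3 (28.1-fold, 95% interval 25.3 to 31.4) were lower in Ery 1. That of Mpo went from a log2 of -4.70 to -6.24 with free RNA taken off and to -3.93 as a mean of the CPM of single cells.

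Kit and Epor, the receptors of the early and the late cytokine, differed most at different steps. Epor (chr9:21958897-21963506) was 8.99 and 8 CPM in HPSC, 129 and 129 in Ery 1 and 178 and 178 in Ery 2, and its step of at least 2-fold lay between HPSC and Ery 1 (15.2-fold higher in Ery 1, 95% interval 11.6 to 20.2). The log2 ratio of Epor was 3.92, and 4.73 without the cells over 4% adult globin. The step of Kit lay between Ery 1 and Ery 2. Of the 3 stages, Ery 1 was the 1 in which both receptors stood at least 2-fold above their lowest level. In the signalling list, of 13 compared genes 1 (Epor) was higher than in HPSC and 4 were lower, against 5.39% and 11.2% of all compared genes: the kinase gene Pim1, the PI3-kinase subunit gene Pik3r1, and the negative regulators Ptpn6 and Sh2b3. Against Ery 2, 5 of 14 compared were higher in Ery 1 and none was lower, against 4.24% and 1.9% of all compared genes: Kit, Stat5a, the Src-family kinase gene Lyn, the adaptor gene Grb2 and Ptpn6. With median-of-ratios scaling, which sets the median gene rather than the total UMIs equal, these counts were 4 and 1. Stat5a, a transcription factor activated by both receptors, was 31.2 and 36 in Ery 1 and 13.3 and 14.8 in Ery 2. Grb2 was 96.7 and 92 in Ery 1 and 34.2 and 37.2 in Ery 2, and the phosphatase gene Ptpn6 was 164 and 152 in HPSC, 50.8 and 47.9 in Ery 1 and 13.5 and 12.1 in Ery 2. The direct feedback targets Socs3 and Cish were too low to be compared in Ery 1, with Socs3 at 0.709 and 0.323 and Cish at 2.63 and 3.55.

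The summed level of the heme synthesis genes stood between HPSC and Ery 2, but not that of every member. Of 12 compared, 9 were higher in Ery 1 than in HPSC and 1 was lower, against 5.39% and 11.2% of all compared genes, and the sum was 1062 and 954 CPM in HPSC, 3379 and 3152 in Ery 1 and 7599 and 6613 in Ery 2. Cpox, coproporphyrinogen oxidase, was 63.2 and 68.2 in HPSC, 486 and 473 in Ery 1 and 1061 and 969.7 in Ery 2. Alad, an early enzyme of the pathway, was 97.7 and 87 in HPSC, 526 and 478 in Ery 1 and 1030.3 and 893 in Ery 2. The housekeeping first enzyme Alas1 was the lower one, at 9.32 and 9.59 against 24.6 and 27.8 in HPSC. Its erythroid form Alas2 was not higher than in HPSC in either library, at 38.5 and 48.6 in Ery 1 and 78 and 60.2 in HPSC (a log2 ratio of -0.68, and 0.22 without the cells over 4% adult globin, counted in neither case), and was 167 and 151 in Ery 2, 3.67-fold (95% interval 3.39 to 3.97) lower in Ery 1, with a log2 ratio of -1.87 that was -2.51 without the cells of Ery 1 over 4% adult globin.

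Tfrc and several other iron genes were higher in Ery 1 than in HPSC. Of 11 compared, 5 were higher in Ery 1 than in HPSC, namely Tfrc, Slc11a2, Steap3, Slc40a1 and Glrx5, and 1, the mitochondrial iron importer gene Slc25a37, was lower than in Ery 2, where 5.39% of all compared genes were higher than in HPSC and 1.9% lower than in Ery 2. With median-of-ratios scaling 3 of 11 were lower than in Ery 2. The transferrin receptor gene Tfrc was 25.2 and 23.7 CPM in HPSC, 93.6 and 88.7 in Ery 1 and 165 and 147 in Ery 2. Steap3, which reduces endosomal iron, was 8.99 and 7.36 in HPSC, 85.9 and 72.4 in Ery 1 and 95.9 and 74.2 in Ery 2. Slc25a37, which encodes mitoferrin, was 90.2 and 64.6 in HPSC, 82.2 and 73.6 in Ery 1 and 238 and 198 in Ery 2. Many red cell membrane genes were higher than in HPSC and lower than in Ery 2, with 10 of 14 compared higher than in HPSC (5.39% of all genes) and 9 of 15 compared lower than in Ery 2 (1.9% of all genes). The Rh blood group gene Rhd was 45.8 and 43.2 in HPSC, 191 and 174 in Ery 1 and 540.0 and 474 in Ery 2. Another blood group gene, Icam4, was 15.9 and 14.4 in HPSC, 109.7 and 122 in Ery 1 and 252 and 228 in Ery 2, and both genes stood between their neighbours in each library. The anion exchanger gene Slc4a1 was not counted as higher than in HPSC, at 38.6 and 41.7 in Ery 1 and 41.5 and 43.2 in HPSC. It was 4.47-fold (95% interval 4.13 to 4.84) lower than in Ery 2.

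**Figure D2:**
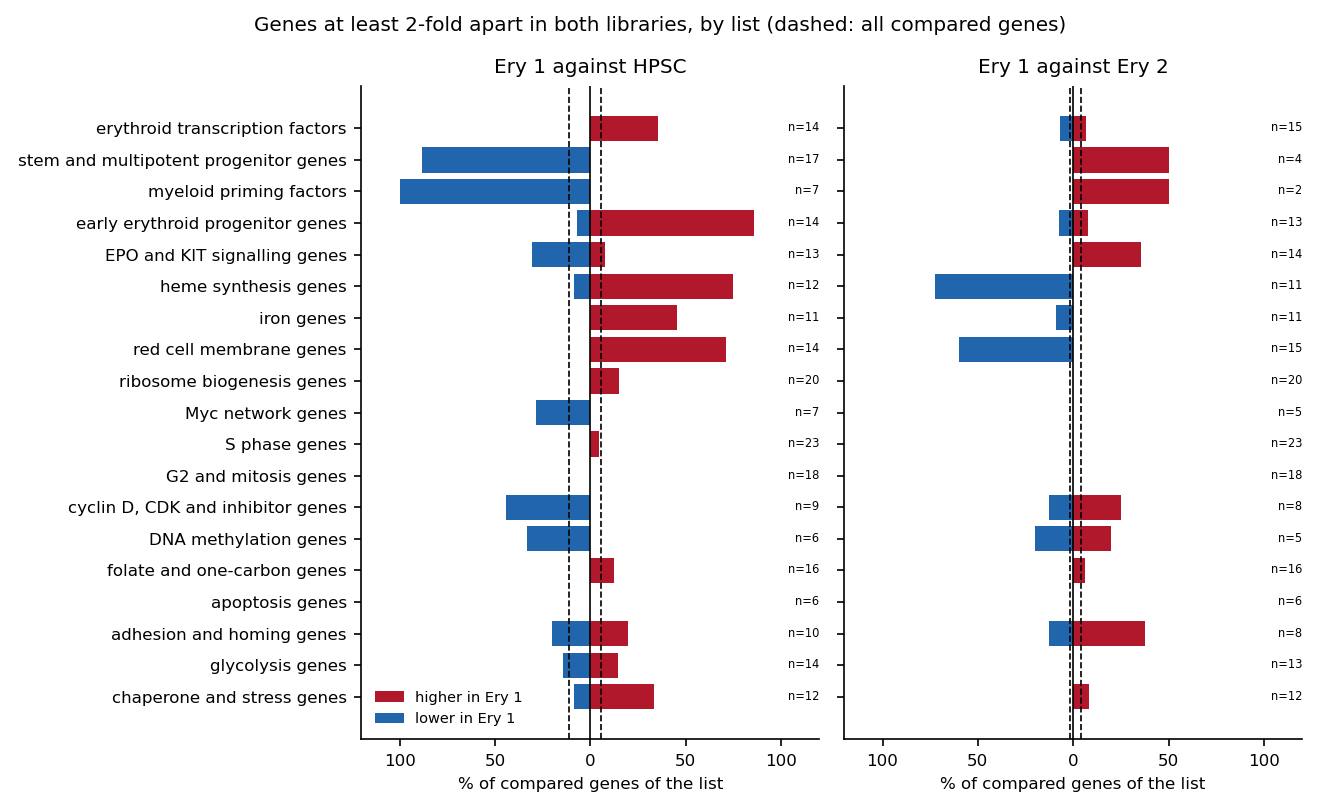
Percent of compared genes in each list (horizontal bars) counted as higher or lower in Ery 1 than in HPSC and than in Ery 2. Dashed lines give the same percent over all compared genes. The globin list and the marker lists of cell types are not shown. Stem and myeloid lists stand out as lower and early erythroid, heme and membrane lists as higher against HPSC, and heme and membrane lists as lower against Ery 2.

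Against Ery 2, Ery 1 was higher in Vim, Apoe, Kit and Myb and lower in most heme synthesis genes. Of 5944 compared genes, 252 (4.24%) were counted as higher in Ery 1 and 113 (1.9%) as lower. This balance rested on the scaling. With median-of-ratios scaling 147 genes were higher and 199 lower, which moved the higher share of the counted genes from 69.0% to 42.5% and the median log2 ratio of all genes from 0.16 to -0.095. Vim, an intermediate filament gene, was 129 and 130.3 CPM in Ery 1 and 4.03 and 5.63 in Ery 2, 27-fold (95% interval 21.8 to 33.9) higher, with a log2 ratio of 4.75 that was 3.84 as a mean of the CPM of single cells. Apoe, apolipoprotein E, was 492 and 541 in Ery 1 and 19.2 and 21 in Ery 2, 25.7-fold (95% interval 23.1 to 28.6) higher, and with free RNA taken off its log2 ratio went from 4.68 to 10.5, with Ery 2 near 0. The tetraspanin gene Cd63 was 10.5-fold (95% interval 9.07 to 12.3) higher, Myb 4.76-fold (95% interval 4.27 to 5.32) and the cell cycle kinase gene Cdk6 4.02-fold (95% interval 3.67 to 4.42). On the lower side were the erythroid genes Trim10 (5.73-fold, 95% interval 5.2 to 6.33) and Hemgn (4.55-fold, 95% interval 4.29 to 4.82), the phosphatase gene Acp5 (5.69-fold, 95% interval 5.34 to 6.07), the surface gene Cd24a (3.61-fold, 95% interval 3.52 to 3.7) and the heme enzyme gene Uros (3.91-fold, 95% interval 3.58 to 4.27). All 10 of these genes differed by far more than the shift between the scalings. Of the stem and multipotent list only 4 genes were compared with Ery 2, of which 2 were higher in Ery 1, and 1 with median-of-ratios scaling or without the cells over 4% adult globin. As a mean of the CPM of single cells, 6 of the list were compared and 5 were higher in Ery 1. In the heme list 8 of 11 compared genes were lower under the total-UMI scaling and 11 of 11 under median of ratios.

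Ery 1 was made of 2 finer deposited clusters, cluster 18 with 278 cells (135 and 143) and cluster 9 with 456 (240 and 216). The comparison of these clusters was added after the annotation had been seen. Cluster 18 was shallower, with a median of 20696 and 20611 UMIs a cell against 29578.5 and 29203 in cluster 9. Of the 27 Ery 1 cells left out at thinning, 25 were of cluster 18. Of 6218 genes compared, 313 (5.03%) were higher in cluster 18 and 109 (1.75%) in cluster 9. Gata2, the early GATA factor, was 42.3 and 34.6 CPM in HPSC, 105 and 90.9 in cluster 18, 2.11 and 2.18 in cluster 9 and 0.544 and 1.03 in Ery 2. After thinning it was seen in 46.5% of cluster 18 cells and 1.83% of cluster 9 cells, with 0.609% in hepatoblasts. Gata1 did not separate them, at 141 and 152 in cluster 18 and 172 and 172 in cluster 9. Cluster 18 thus held both GATA transcripts.

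Apoe, Vim and most compared stem and multipotent genes were higher in cluster 18 than in cluster 9. Apoe was 429 and 447 CPM in HPSC, 1492 and 1548 in cluster 18, 105 and 92.4 in cluster 9 and 19.2 and 21 in Ery 2, a peak in cluster 18. Vim was 360.4 and 334 in HPSC, 420.0 and 395 in cluster 18, 16.6 and 12.8 in cluster 9 and 4.03 and 5.63 in Ery 2, so that its drop lay between the clusters and not before them. Car1 also peaked in cluster 18, at 186 and 168 against 43.7 and 28.6 in cluster 9. The interferon-induced membrane gene Ifitm1 had the largest ratio between the clusters among genes of at least 50 CPM, at 207 and 292 in cluster 18 and 2.81 and 1.87 in cluster 9. Of 9 compared stem and multipotent genes, 7 were higher in cluster 18 than in cluster 9, against 5.03% of all compared genes. Kit was 45.7 and 44.4 in cluster 18 and 29.4 and 25.7 in cluster 9, within 2-fold, unlike Gata2.

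Klf1, Epor and several heme and membrane genes were higher in cluster 9. Klf1 was 246 and 247 CPM in cluster 18 and 515 and 497 in cluster 9, 2.05-fold (95% interval 1.94 to 2.18) higher in the latter, and Epor was 69.3 and 70.3 in cluster 18 and 153 and 155 in cluster 9, 2.21-fold (95% interval 1.98 to 2.46) higher. Pklr, the red cell pyruvate kinase gene, was 23.9 and 21.3 in cluster 18 and 126 and 104 in cluster 9. The cytoskeletal gene Add2 was 23.2 and 22 in cluster 18 and 113 and 111 in cluster 9. Heme and membrane lists differed the same way, with 5 of 12 and 7 of 15 compared genes lower in cluster 18 (1.75% of all compared genes) and 1 heme gene, Alas1, and no membrane gene higher. Summed over cells, globin and erythroblast markers went the other way, with a median log2 ratio of cluster 18 to cluster 9 of 0.91 for the globin list (none of 7 counted) and 0.64 for 6 compared erythroblast markers (1 of them lower in cluster 18). The globin sum was carried by few cells: 6 of 135 and 28 of 143 cluster 18 cells gave over 4% of their UMIs to adult globin and held 37.7% and 78.8% of its adult globin UMIs. The median cell gave 0.732% and 0.887% in cluster 18 and 0.793% and 0.917% in cluster 9, lower in cluster 18 in both libraries. Cluster 18 differed from HPSC by 157 genes higher (2.37%) and 421 lower (6.37%) of 6613 compared. Cluster 9 differed from Ery 2 by 124 higher (2.12%) and 87 lower (1.49%) of 5837, and under median of ratios by 58 and 132, so that the higher share of the counted genes went from 58.8% to 30.5%. With the adult globin genes left out it was 49.5%.

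**Figure D3:**
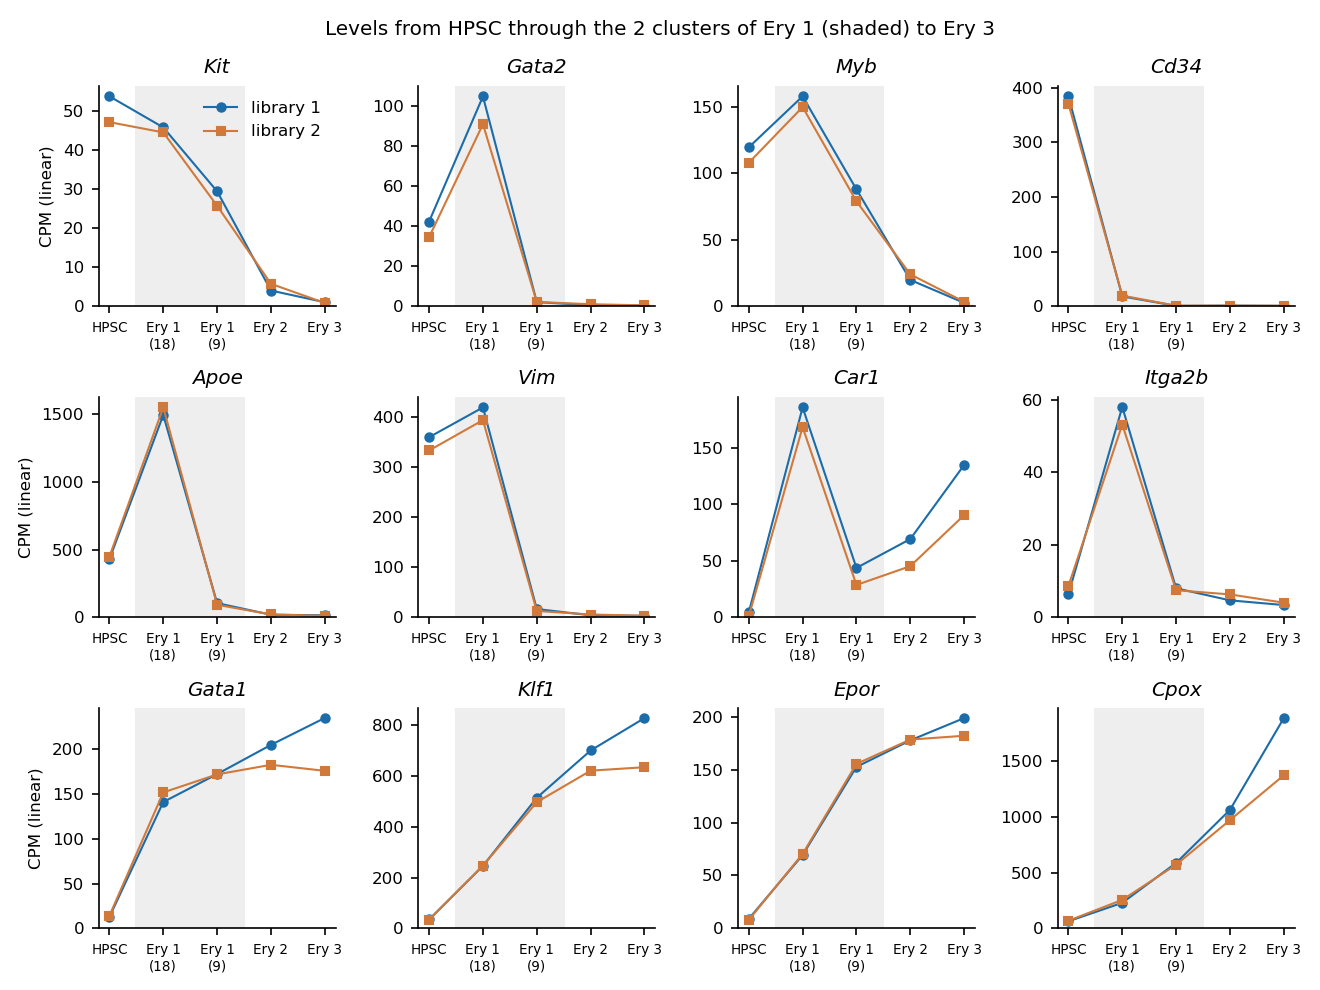
CPM of 12 genes (1 panel each, vertical axis) along HPSC, the clusters 18 and 9 of Ery 1, Ery 2 and Ery 3 (horizontal axis), with 1 line per library. Gata2, Apoe, Car1 and Itga2b have their highest level in cluster 18, Vim and Gata2 drop between the clusters, Kit and Myb drop after cluster 9, and Klf1, Epor and Cpox are higher at each step up to Ery 2.

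The deposited cell cycle phases differed between the clusters. In Ery 1, 61.0% of cells were called S phase (60.5% and 61.6% in the libraries), 21% G2/M and 18% G1, against 34.9% S phase in HPSC and 77.6% in Ery 2. Cluster 18 had 35.3% of its cells in S phase (34.8% and 35.7%) and cluster 9 76.8% (75% and 78.7%). Phase calls are scores on transcripts and free RNA can enter them, so no rate of division is read from them. The contrast between the clusters was also present among S-phase cells alone (47 and 51 cells of cluster 18, 180 and 170 of cluster 9). There Apoe was 1320 and 1377 CPM in cluster 18 against 62.0 and 86.8 in cluster 9, and Gata2 was 98.5 and 65.0 against 2.05 and 1.76. Klf1 was 276 and 276 against 526 and 498, the same direction as over all cells but less than 2-fold in each library. Among 23 compared S phase genes, Ccne1, which encodes cyclin E1, was counted as higher in Ery 1 than in HPSC, at 163 and 162 against 40.6 and 34.2, and 1 of 23 is near the 5.39% of all compared genes. None of the 18 compared G2 and mitosis genes was counted in either step; with median-of-ratios scaling 3 of 18 were higher than in HPSC and 1 of 18 lower than in Ery 2, and without the cells over 4% adult globin 2 of 18 were higher than in HPSC. The cyclin D2 gene Ccnd2 was 189 and 189 in HPSC, 92.4 and 91.1 in Ery 1 and 35 and 35 in Ery 2.

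**Figure D4:**
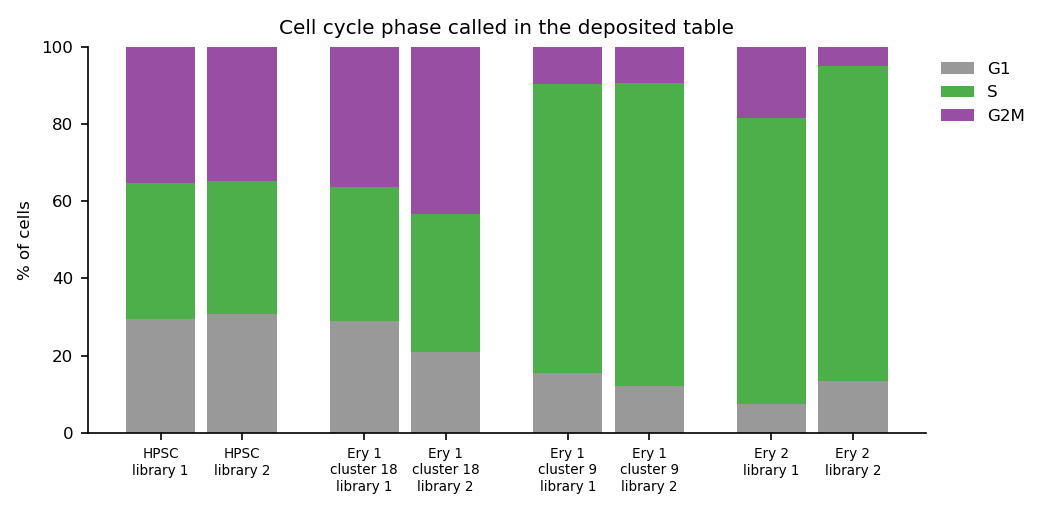
Percent of cells in the deposited G1, S and G2/M phases in HPSC, the clusters 18 and 9 of Ery 1, and Ery 2. The stacked bars add to 100%, with 1 bar per group and library. S phase is 34.8% and 35.7% in cluster 18 and 75% and 78.7% in cluster 9.

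Markers of other cell types were low in Ery 1 but not evenly spread over it. Summed hepatoblast markers came to 30.9 and 19.3 CPM, against 53215 and 39435 in the hepatoblasts themselves, and the most abundant was Afp. Endothelial markers came to 1.62 and 1.18 and monocyte and macrophage markers to 7.6 and 3.45, with Timd4 at 0, and lymphoid markers to 0 and 0.646. Granulocyte markers came to 118 and 74.2 against 1323 and 1367 in HPSC, and S100a8 in library 1 had 474 UMIs with 283 of them in 1 cell. By cluster the granulocyte markers came to 152 and 167 in cluster 18 and 105 and 33 in cluster 9. Of 3 compared, 2 were higher in cluster 18, against 5.03% of all compared genes. In cluster 9 of library 1, 1 cell held 283 of the 422 S100a8 UMIs and 1 cell held 157 of the 212 Ngp UMIs. Mpo had 178 and 266 UMIs in cluster 18 against 47 and 48 in cluster 9. Mast cell or basophil markers came to 10.6 and 8.29, all but 1 UMI of it in cluster 18 (38.1 and 26.6) with Fcer1a at 0. The mast cell protease gene Cpa3 accounted for most, with 91 and 68 UMIs in 27 and 29 cells. Megakaryocyte markers came to 241 and 153 in cluster 18 and 19.1 and 23.3 in cluster 9, with Gp6 at 0 in cluster 18. All 3 that were compared between the clusters were higher in cluster 18, against 5.03% of all compared genes. All 3 that were compared between cluster 18 and HPSC were also higher in cluster 18, against 2.37% of all compared genes. In library 1, 112 of the 173 Pf4 UMIs were in 1 cell, but Itga2b, the integrin αIIb gene, had at most 7 UMIs in any Ery 1 cell and was 6.38 and 8.64 CPM in HPSC, 58 and 53.2 in cluster 18, 8.01 and 7.47 in cluster 9 and 1051 and 561 in megakaryocytes. The part of these markers in the difference between the clusters was not tested. Doublets were removed by the authors at the sort, and no further doublet calling was done.

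Adult globin did not separate Ery 1 from HPSC. The median Ery 1 cell gave 0.771% and 0.905% of its UMIs to adult globin, the median HPSC cell 0.728% and 0.885% and the median Ery 2 cell 2.06% and 5.85%. No Ery 1 cell was below 0.515% and 0.661%. A small set of Ery 1 cells stood far above the rest: 12 of 375 and 38 of 359 cells had over 4%, a bound chosen after the values were seen with 1 and 2 Ery 1 cells between 3% and 5%, and they held 24.1% and 61.1% of the adult globin UMIs of Ery 1. HPSC had such cells too, at 14 of 213 and 29 of 208, which held 55.1% and 71.5% of its adult globin UMIs. Of the 38, 28 were in cluster 18 and 15 had under 10000 UMIs. Their other late transcripts were high too, with Alas2 at 302 and 358 CPM against 30.0 and 26.2 in the remaining Ery 1 cells and Slc4a1 at 293 and 298 against 30.5 and 23.3, while Klf1 was 494 and 430 against 443 and 430. Embryonic globin was part of this, with Hbb-bh1 at 1008 and 1956 against 81.1 and 67.4 and Hbb-y at 375 and 787 against 323 and 243. With such cells left out of Ery 1 and HPSC, the comparison with HPSC counted 378 genes as higher and 764 as lower, of which 336 and 729 were counted with them.

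**Figure D5:**
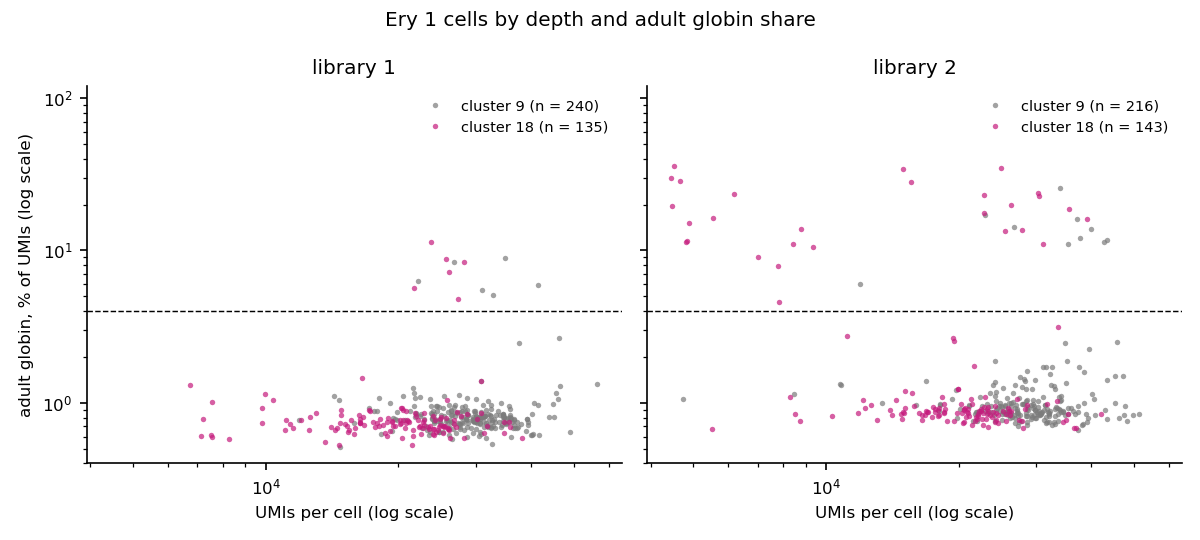
Each point is an Ery 1 cell, with its UMIs on the horizontal log axis and the percent of its UMIs from adult globin on the vertical log axis, coloured by cluster, with a panel per library and a dashed line at 4%. Most cells lie in a band around the medians of 0.771% in library 1 and 0.905% in library 2, and 12 and 38 cells lie above the line.

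Only 11 of 6396 genes (0.172%) were highest in Ery 1, at least 2-fold above both HPSC and Ery 2 in each library, and 4 (0.0625%) were lowest. Gm15915 led them, at 5.51 and 3.52 CPM in HPSC, 238 and 288 in Ery 1 and 31.7 and 47.7 in Ery 2. Within Ery 1 it was 413 and 472 in cluster 18 and 171 and 206 in cluster 9. Ass1, argininosuccinate synthase, was 22 and 17.3 in HPSC, 79.7 and 61.4 in Ery 1 and 7.08 and 7.01 in Ery 2, and it too was higher in cluster 18, at 159 and 116. The others were Ydjc, Itga2b, Mogs, F2r, Pgm1, Epdr1, Fkbp11, Gdf3 and Rab4a. The 4 lowest were Sgk3, H19, and the early response genes Btg2 and Dusp1, with Btg2 at 33.9 and 24 in HPSC, 10.2 and 9.69 in Ery 1 and 53 and 43.9 in Ery 2. The clusters inside Ery 1 were not part of this rule.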

How the data were processed

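The authors deposited filtered count matrices of UMIs per gene and cell for each library and an annotation table with the cell type, cluster and phase of each kept cell. Per the study's methods, the authors ran Cell Ranger 2.1.1 against mm10, left out cells with fewer than 200 genes and clustered the rest in Seurat 3.2.0. One matrix header (library 1) gives a different version, 3.0.0, and the other gives no version. Raw counts were summed per annotated group and library with Python 3.11.15, numpy 2.4.6, pandas 2.3.3 and scipy 1.17.1, and scaled to CPM. A gene was compared when the mean of both groups was at least 10 CPM in each library and counted when at least 2-fold different the same way in both. Shares of cells used the exact expectation after thinning to 8800 UMIs. Intervals are exact (Poisson, or Clopper-Pearson for shares) at 95%. Gene positions follow the GENCODE M21 annotation of GRCm38. Genes named are members of the lists, the 15 largest ratios in each direction with at least 50 CPM, and genes highest or lowest in Ery 1. Genes outside that rule (Pgk1 and Eno1 among them) were chosen after their values were seen. S100a8, a member of the granulocyte marker list, was singled out after its values were seen. The cells, lists and markers were chosen with earlier results of these data known. The counting rule was tested on simulated data, and the outcome is not given here.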

Additional observations from a re-analysis of the deposited data

How the results depend on the processing

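No paired analysis was possible because the 2 libraries are technical replicates of 1 liver and no result comes from a test between samples. Values are in the order higher in Ery 1 than HPSC, lower than HPSC, higher than Ery 2, lower than Ery 2, higher in cluster 18 than cluster 9, lower, cluster 18 higher than HPSC, lower, cluster 9 higher than Ery 2, lower, highest in Ery 1 of the 3 stages, and lowest. The counts were 356, 737, 252, 113, 313, 109, 157, 421, 124, 87, 11 and 4. A minimum of 50 CPM gave 161, 170, 49, 49, 60, 50, 49, 93, 32, 32, 3 and 0. A 3-fold difference gave 131, 470, 102, 38, 184, 30, 74, 234, 23, 26, 2 and 0. Median-of-ratios scaling moved the counts against Ery 2 to 147 and 199, and those of cluster 9 to 58 and 132. Without a minimum level and with 1 CPM added, 1845 genes were lower than in HPSC, 764 higher than in Ery 2, 1005 higher in cluster 18 than in cluster 9, 291 higher and 1089 lower in cluster 18 than in HPSC, 258 higher in cluster 9 than in Ery 2, and 40 highest in Ery 1. With 1 library alone, 189 to 205 genes were higher in cluster 9 than in Ery 2, 18 to 22 highest and 10 to 12 lowest in Ery 1. Summing the libraries gave 17 highest, and taking off free RNA at 10% of UMIs gave 31 lowest. The remaining alternatives left these counts within 1.5 times. The cause was not tested beyond the smaller number of genes compared.

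The share of Ery 1 cells with a Kit UMI (25% thinned) was 53.8% without thinning, 14.2% at the lower depth of 4400 UMIs and 4.10% for at least 2 UMIs, and that of Car1 (28.7%) was 47.3%, 19.5% and 13.9%. The log2 ratio of the lowest to the highest globin group was 0.33 for Kit (0.55 with 8 groups), 0.38 for Car1 (0.52 with 2 groups, 0.21 with 8) and -0.17 for Gata1, which reversed to 0.043 with 8 groups. Ery 1 held 359 to 375 cells with 1 library alone, and was 9.86% rather than 6.97% of cells with at least 1000 genes and under 10% mitochondrial UMIs. Of the ratios of named genes, 107 of 147 to HPSC and 107 of 146 to Ery 2 moved little; the signs of Alas2, Slc4a1 and Cdk6 to HPSC changed, and none of these was counted. Beyond these, 1 liver, capture by droplets, free RNA in every cell and clusters drawn from the same transcripts limit what the groups show.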

Other observations

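The 20 ribosome biogenesis genes summed to 8736 and 8371 CPM in HPSC, 13794 and 13319 in Ery 1, 10596 and 10256 in Ery 2 and 3271 and 3293 in Ery 3. Of the 20, Nolc1, Ddx21 and Rrp12 were counted as higher in Ery 1 than in HPSC, and none was counted against Ery 2. The nucleolar protein gene Ncl was 1213 and 1217 in HPSC, 2418 and 2558 in Ery 1 and 1969 and 2112 in Ery 2. Of 12 compared chaperone and stress genes, 4 (Hsp90aa1, Hspd1, Hspe1 and Hsph1) were higher in Ery 1 than in HPSC, with Hsp90aa1 at 3657 and 3686 against 1471 and 1545, and the immediate early gene Fos was lower. Over all compared genes 5.39% were higher and 11.2% lower. In the folate and one-carbon list, Mthfd1 and Mthfd2 were higher than in HPSC out of 16 compared, and Shmt1, the cytosolic serine hydroxymethyltransferase gene, was 51.1 and 46 in Ery 1 and 14.4 and 14.8 in Ery 2.

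The pyruvate kinase gene Pkm was 959 and 944 CPM in HPSC and 465 and 468 in Ery 1, while the red cell form Pklr was 4.93 and 5.76 and 97.4 and 78.5 and reached 208 and 150.5 in Ery 2. Of 14 compared glycolysis genes, Hk1 and Pklr were counted as higher and Pkm and Ldhb as lower than in HPSC. Over all compared genes 5.39% were higher and 11.2% lower, and 2 of 14 lower is near the latter share. With median-of-ratios scaling or as a mean of the CPM of single cells 1 was lower. The de novo DNA methyltransferase gene Dnmt3b was 173 and 156, 28 and 26.1 and 3.81 and 5.17 across the 3 stages. Dnmt1, the maintenance enzyme gene, was 83.8 and 75.8, 67.4 and 65.9 and 63.8 and 53.9. Nfe2, a factor shared by the erythroid and megakaryocyte lineages, was 115 and 105 in cluster 18 and 44.8 and 43.6 in cluster 9.

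Cells were also ordered by their adult globin share within each library and divided into 4 groups of equal size. Kit read 40.9, 34.3, 26.4 and 34.8 CPM from the lowest to the highest group of library 1, and 38.2, 33.5, 25.7 and 27.8 in library 2. The first 3 groups stood in the same order in both libraries and the highest group did not continue it. Klf1 read 365, 409, 486 and 493 CPM in library 1 and 387, 407, 424 and 469 in library 2. The groups held 48, 43, 20 and 24 cells of cluster 18 in library 1 and 41, 35, 29 and 38 in library 2. What part free RNA and the clusters have in this order was not tested.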
